A study of Rattus norvegicus with 28 samples.

Results

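The transcripts of 7 genes that label classes of cortical interneurons were followed in rat orbitofrontal cortex after methamphetamine (meth) self-administration. They were chosen by Ensembl identifier, without use of their measured values, from the 26405 genes of the count files. Earlier results of these data were known when the choice was made. The 7 were the neuropeptide genes Sst (ENSRNOG00000001837), Vip (ENSRNOG00000018808), Npy (ENSRNOG00000046449), Cck (ENSRNOG00000019321) and Crh (ENSRNOG00000012703), and the calcium-binding protein genes Pvalb (ENSRNOG00000006471) and Calb1 (ENSRNOG00000007456). All 7 identifiers were in the files, 6 had reads and passed the filter on low counts, and Npy had no read in any library.

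Cortical interneurons release GABA and are divided into classes by the peptides and calcium-binding proteins they carry. Parvalbumin cells contact the soma and axon start of pyramidal cells, somatostatin cells contact their dendrites, and vasoactive intestinal peptide cells mainly contact other interneurons. Neuropeptide Y and corticotropin-releasing hormone are carried by subsets of these cells, whereas cholecystokinin and calbindin are also made by many cortical pyramidal cells.

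The 16 libraries were poly(A) RNA-seq libraries of orbitofrontal cortex punches, each pooled from 2 Sprague Dawley rats. All rats had intravenous surgery and were trained to self-administer either saline or meth, a psychostimulant. Tissue was taken on withdrawal day 2 or day 35, which gave 4 groups of 4 libraries (day 2 saline, day 2 meth, day 35 saline and day 35 meth). The labels used here state neither age nor sex. The saline rats are the only controls, with no untrained group. Libraries held 20.33 to 48.47 M gene counts (M stands for mega), and the 4 of day 2 saline were the shallowest, at 20.33 to 23.54 M. Levels are CPM, gene counts scaled to the size of the library, and they are compared between samples but not between genes, because no transcript lengths were used. Replicates are different pools of rats. A gene was called different at an adjusted p under 0.05 over all 15413 genes tested, by edgeR's quasi-likelihood test.

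None of the 6 measured genes passed the test over all genes between meth and saline rats or between withdrawal days. Of the comparisons made between pairs of groups, only that of Cck over time in saline rats had groups that did not overlap. In that comparison 3.86% of all genes tested had groups that did not overlap. The spread itself was uneven among the 6 genes. Calb1 varied more between pools of the same group than nearly all genes of its level. Vip varied with it, and Sst varied against it in a relation whose call was lost once lane means were subtracted. Neither relation passed without day 2 saline replicate 15. In punched tissue a change in the number of cells of a class and a change in RNA per cell cannot be told apart.

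**Figure D1:**
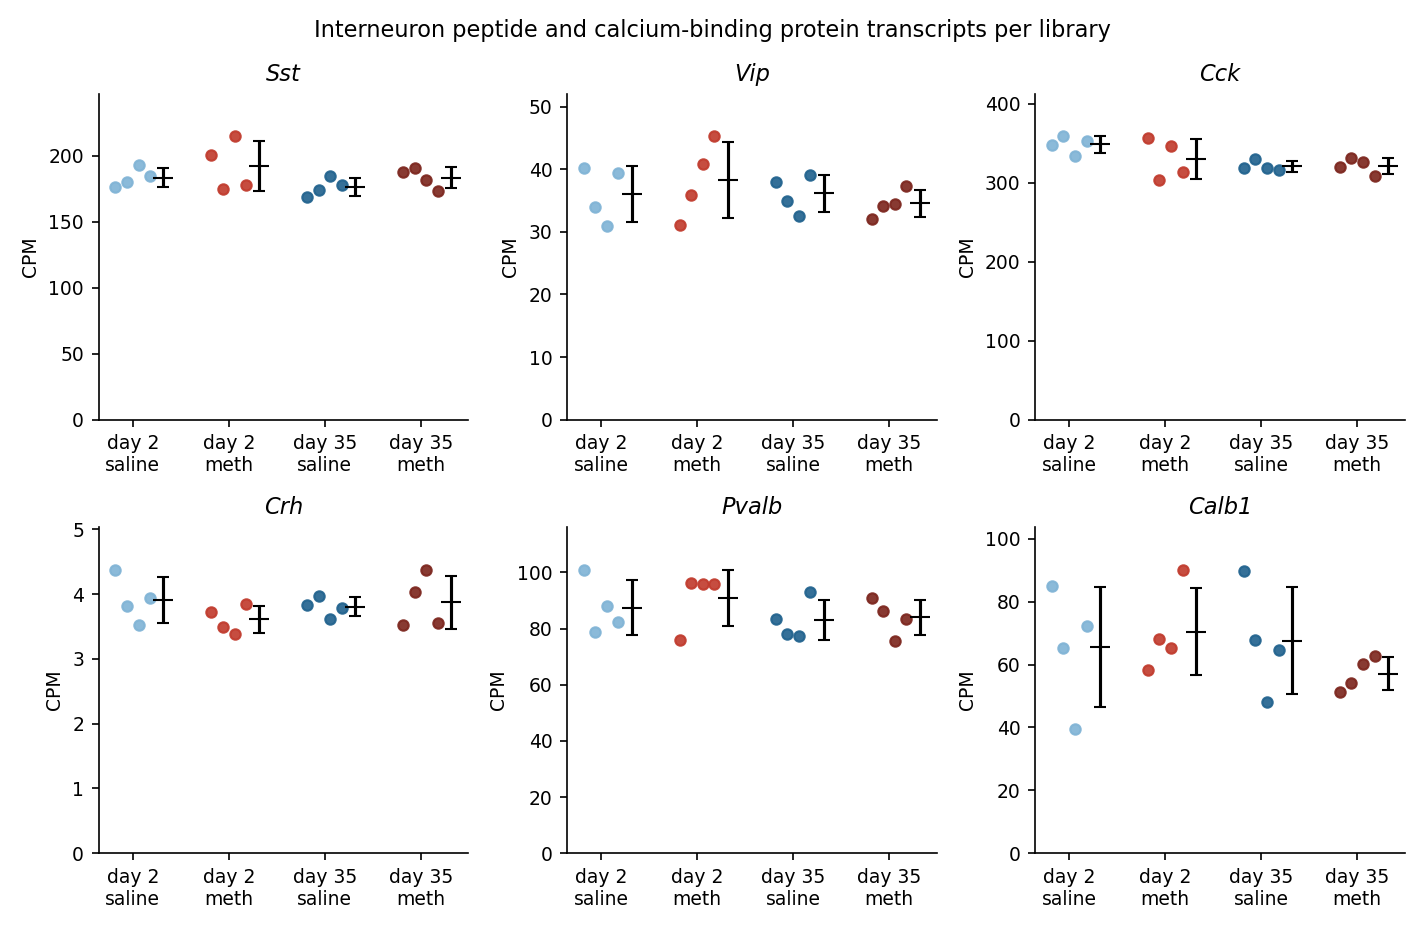
Level of each gene in CPM (vertical axis, from 0) in the 16 libraries, by group (horizontal axis). Points are libraries and the black bars are the group mean ± SD (n = 4). The 4 groups overlap in the panels of all genes but Cck, and the widest scatter is that of Calb1 (39.6 to 90.2 CPM). The day 35 points of Cck in saline (316 to 330 CPM) and in meth (308 to 331 CPM) all lie below its day 2 saline points (334 to 359 CPM). For day 35 meth against day 2 saline, which differ in drug and day, the share of all genes with such a gap was not counted.

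Sst encodes somatostatin, the peptide of the dendrite-targeting interneurons. Its level was 176, 180, 193 and 185 CPM in day 2 saline replicates 13 to 16, and 201, 175, 215 and 178 CPM in day 2 meth replicates 1 to 4. On day 35 it was 169, 174, 185 and 178 CPM in saline replicates 9 to 12, and 188, 191, 182 and 173 CPM in meth replicates 5 to 8. The 4 groups overlapped, and day 2 meth held both the highest library and one of the lower ones. Sst was 1.05-fold in meth relative to saline rats on day 2 (log2 fold change 0.06, SE 0.056, 95% interval -0.05 to 0.18, edgeR adjusted p = 0.74). On day 35 the ratio was 1.04-fold (95% interval on the log2 scale -0.06 to 0.17, edgeR adjusted p = 0.95). Together these intervals reach from 0.959-fold to 1.14-fold.

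Vip encodes vasoactive intestinal peptide, carried by interneurons that inhibit other interneurons. It was measured at 40.2, 33.9, 30.9 and 39.4 CPM in day 2 saline, and at 31.1, 35.9, 40.8 and 45.3 CPM in day 2 meth libraries, in the order of replicates above. The day 35 libraries stood at 37.9, 35.0, 32.6 and 39.0 CPM in saline and 32.1, 34.2, 34.5 and 37.4 CPM in meth libraries. The ranges overlapped in every comparison, and the day 2 meth libraries alone spanned the range of all 16 but for the lowest library. The log2 fold change of meth against saline was 0.09 on day 2 (95% interval -0.14 to 0.32, edgeR adjusted p = 0.82) and -0.07 on day 35 (95% interval -0.29 to 0.15, edgeR adjusted p = 0.97).

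Sst and Vip are the peptide genes whose levels went with that of Calb1, in opposite directions, as described further on, and the sequences around their starts are shown for that reason. Both are textbook targets of the cyclic AMP pathway, whose response element (CRE) is the palindrome TGACGTCA. The windows run from 250 bases before to 50 after the start given by RefSeq in the GRCr8 assembly, which is not the build of the count files. The Sst window is chr11:90461296-90461595 and the Vip window chr1:44470230-44470529, both on the plus strand. Capitals mark the CRE or, in Vip, its shorter core TGACG.
Sst: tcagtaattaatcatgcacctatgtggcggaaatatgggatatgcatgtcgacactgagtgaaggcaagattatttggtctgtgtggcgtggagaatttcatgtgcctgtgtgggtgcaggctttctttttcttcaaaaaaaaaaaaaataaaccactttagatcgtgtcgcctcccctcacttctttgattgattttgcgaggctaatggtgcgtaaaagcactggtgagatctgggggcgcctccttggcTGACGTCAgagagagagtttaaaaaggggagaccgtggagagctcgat
Vip: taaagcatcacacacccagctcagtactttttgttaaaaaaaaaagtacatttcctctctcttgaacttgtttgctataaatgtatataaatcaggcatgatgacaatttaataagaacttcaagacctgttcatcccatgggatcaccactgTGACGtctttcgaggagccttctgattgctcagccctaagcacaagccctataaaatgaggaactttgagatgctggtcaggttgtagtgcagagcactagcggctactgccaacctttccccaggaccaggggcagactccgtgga
The Sst window holds the whole CRE, which begins 2 bases after the annotated start and contains the core on both strands. The Vip window holds the core alone, 97 bases before the start. Of the 33469 windows of this length in the table, 1.83% hold the whole CRE and 21.2% the core on either strand. Of the 7 genes, 4 have a window in the table, and the core also lies in that of Pvalb. These matches describe the letters only, and no value here measured binding.

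Cck encodes cholecystokinin, a peptide of a class of basket cells and of many pyramidal cells. It had 348, 359, 334 and 353 CPM in day 2 saline and 356, 303, 346 and 314 CPM in day 2 meth libraries. The day 35 values were 318, 330, 318 and 316 CPM in saline and 320, 331, 326 and 308 CPM in meth libraries. Day 2 saline was thus the highest group (349 ± 10.6 CPM, SD, n = 4), day 2 meth the most scattered (330 ± 25.3 CPM), and the day 35 groups were close to each other (320 ± 6.19 CPM in saline and 321 ± 9.97 CPM in meth). The day 35 meth libraries also lay wholly below the day 2 saline libraries. That pair of groups differs in both drug and day and was not tested. The share of all genes that do not overlap in it was not counted. In saline rats the day 35 libraries lay wholly below the day 2 libraries, at 0.919-fold (log2 fold change -0.12, SE 0.042, 95% interval -0.21 to -0.03). This difference did not pass the test over all genes (edgeR adjusted p = 0.45), and 3.86% of all genes tested had saline groups that did not overlap between the days. In meth rats the same comparison gave -0.04 on the log2 scale (95% interval -0.12 to 0.05, edgeR adjusted p = 0.73) with overlapping groups. The difference between these effects of time, tested directly, was 0.09 (SE 0.060, edgeR adjusted p = 0.69). Between meth and saline rats Cck differed by -0.08 on the log2 scale on day 2 (95% interval -0.17 to 0.01, edgeR adjusted p = 0.53) and by 0.00 on day 35 (95% interval -0.08 to 0.09, edgeR adjusted p = 1). The meth against saline comparison on day 2 shares its saline libraries with the comparison over time in saline rats.

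Crh encodes corticotropin-releasing hormone, a stress peptide that subsets of cortical interneurons make. It was the least covered of the 6 genes, with 83 to 193 reads per library, so that counting alone gives a coefficient of variation of about 9.07%. Its level was 4.37, 3.82, 3.52 and 3.94 CPM in day 2 saline and 3.72, 3.50, 3.39 and 3.85 CPM in day 2 meth libraries. Among the day 35 libraries it was 3.84, 3.97, 3.62 and 3.79 CPM in saline and 3.53, 4.03, 4.38 and 3.56 CPM in meth libraries. All groups overlapped within 1.29-fold from the lowest to the highest library. The log2 fold change of meth against saline was -0.11 on day 2 (95% interval -0.32 to 0.09, edgeR adjusted p = 0.75) and 0.03 on day 35 (95% interval -0.17 to 0.22, edgeR adjusted p = 0.99).

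Npy encodes neuropeptide Y, a peptide that cortical interneurons are known to make. No read was assigned to its identifier in any of the 16 libraries. With a limit of 3 counts per library this allows at most 0.0619 to 0.148 CPM, for counting error only. Crh, at 3.39 to 4.38 CPM, was detected well above that limit. Reads that fit several features or several places were not counted to genes by the authors (0.537 to 0.62% and 9.17 to 10.29% of all rows' reads). Whether Npy reads were among them was not tested, and neither was the position that the authors' annotation gives this identifier, whose release is not stated. The 0 therefore describes this row of the files and not the tissue, and Npy enters no comparison.

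Pvalb encodes parvalbumin, the calcium buffer of fast-spiking interneurons. It had 101, 78.7, 88.0 and 82.2 CPM in day 2 saline and 75.8, 96.2, 95.7 and 95.8 CPM in day 2 meth libraries. It had, on day 35, 83.3, 78.2, 77.4 and 93.1 CPM in saline and 90.7, 86.2, 75.6 and 83.4 CPM in meth libraries. In day 2 meth, 3 libraries lay between 95.7 and 96.2 CPM and replicate 1, the shallowest of that group at 24.97 M gene counts, lay far below them. In day 2 saline the highest library was replicate 13, the shallowest of all at 20.33 M. The log2 fold change of meth against saline on day 2 was 0.06 (SE 0.094, 95% interval -0.14 to 0.26, edgeR adjusted p = 0.88), and 0.21 (edgeR adjusted p = 0.27) with both of these libraries left out. They were the lowest meth and the highest saline library in Pvalb, so leaving them out was bound to raise the value. On day 35 the log2 fold change was 0.02 (95% interval -0.18 to 0.21, edgeR adjusted p = 0.99).

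Calb1 encodes calbindin, a calcium buffer of several interneuron types and of upper-layer pyramidal cells. It stood at 85.0, 65.1, 39.6 and 72.1 CPM in day 2 saline and at 58.1, 68.0, 65.3 and 90.2 CPM in day 2 meth libraries. In the day 35 libraries it stood at 89.6, 67.9, 48.2 and 64.6 CPM in saline and at 51.3, 54.1, 60.3 and 62.6 CPM in meth libraries. Replicates of a group thus differed by more than 2-fold in day 2 saline, and the day 35 meth libraries were the closest together (57.1 ± 5.30 CPM, against 67.6 ± 17.1 CPM in day 35 saline, SD, n = 4 each). The difference between these spreads was not tested. The log2 fold change of meth against saline was 0.11 on day 2 (SE 0.23, 95% interval -0.39 to 0.61, edgeR adjusted p = 0.91) and -0.25 on day 35 (SE 0.22, 95% interval -0.74 to 0.24, edgeR adjusted p = 0.94). As ratios the intervals run from 0.766 to 1.53 on day 2 and from 0.600 to 1.18 on day 35, the widest of the 6 genes on both days. Leaving out day 2 saline replicate 15, its lowest library, turned the day 2 value to -0.07.

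Over the 6 genes together, 0 were called between meth and saline on day 2, where 0.11% of all genes were called, and 0 on day 35, where 0% were. None was called when the meth effect was compared between the days (0.136% of all genes) or for meth against saline averaged over both days (0.013%). Over time 0 were called in meth rats, where 1.83% of all genes were called, and 0 in saline rats, where 0% were. A test for any difference among the 4 groups called 0 of them and 0.733% of all genes. DESeq2 and limma-voom called none of the 6 either. DESeq2 gave Crh no adjusted p in 3 of these comparisons (meth against saline on day 2 and averaged over both days, and over time in saline rats), so it tested 5 genes there. Of all genes with an adjusted p, DESeq2 called 2.07% between meth and saline on day 2, 0.0324% on day 35, 0.289% averaged over both days and 0.637% for the change in the meth effect. It called 3.9% over time in meth rats, 0.484% over time in saline rats and 3.78% for any difference among the groups. The base of these DESeq2 shares ran from 5552 genes for meth against saline on day 2 (115 called) to 15413 genes on day 35. They are therefore not directly comparable with each other or with the edgeR shares. The shares with limma-voom, in the same order, were 0.0973%, 0%, 0.013%, 0.0584%, 2.31%, 0% and 0.383%. An unadjusted edgeR p under 0.05 was reached by Cck alone, over time in saline rats, where 8.68% of all genes reached it, and for any difference among the groups, where 14.6% did (edgeR adjusted p = 0.30). The libraries of the groups compared overlapped for all 6 genes between meth and saline on day 2 (5.45% of all genes had groups that did not overlap) and on day 35 (3.46%), and over time in meth rats (11.4%). Over time in saline rats Cck alone did not overlap. The comparisons share groups and are not independent of each other.

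The log2 fold changes of the 6 genes had a median of 0.06 for meth against saline on day 2 and 0.01 on day 35, and the median over all genes was 0 in both. Over withdrawal in meth rats 5 of the 6 had a negative value, with a median of -0.09 against 0 for all genes. The values were -0.07 for Sst, -0.15 for Vip, -0.04 for Cck, 0.10 for Crh, -0.12 for Pvalb and -0.31 for Calb1, and every 95% interval included 0. Without day 2 meth replicate 1 the Cck value was 0.01. In saline rats 4 of the 6 were negative, with a median of -0.05. The median size of change, without its sign, was 0.11 in meth rats against 0.07 over all genes, and 0.06 in saline rats against 0.06. Calb1, Vip and Pvalb also varied more between replicate pools than most genes of their level, as given below. These sizes were not set against genes of like spread.

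**Figure D2:**
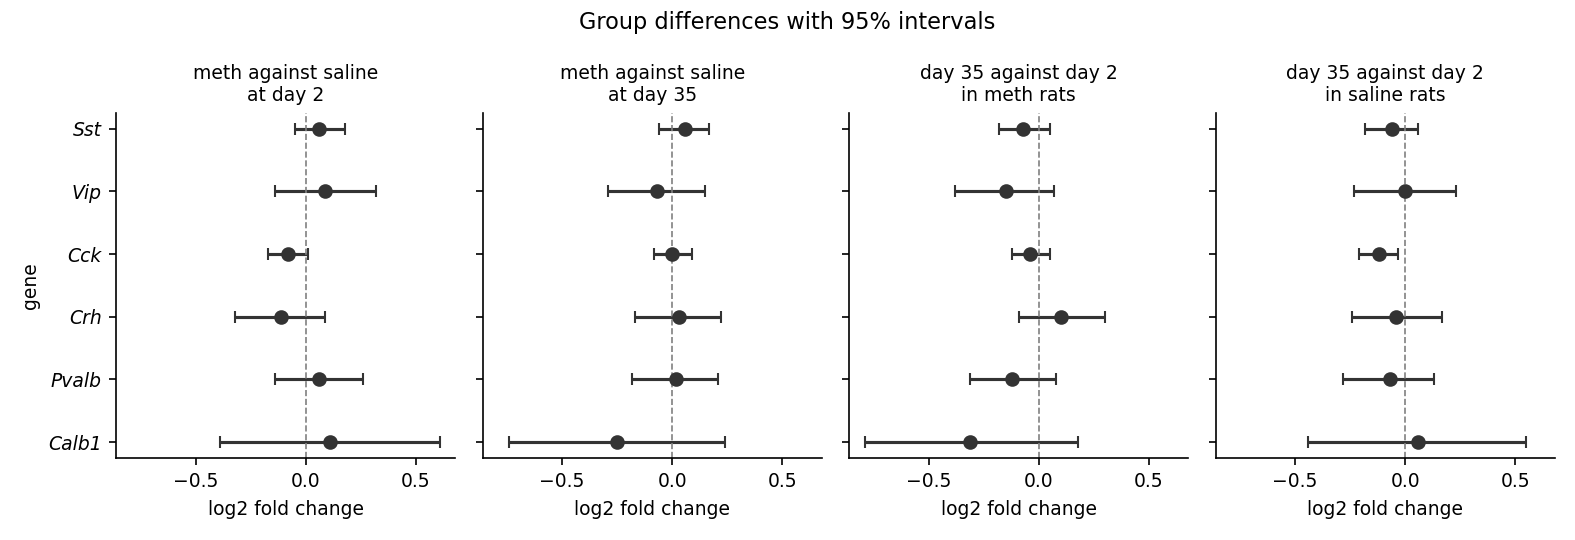
Log2 fold changes (horizontal axis) of the 6 genes (vertical axis) in the 4 pairwise comparisons, as edgeR estimates with 95% intervals. All intervals include 0 apart from that of Cck over time in saline rats (-0.21 to -0.03), and the Calb1 intervals are the widest.

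The spread between replicate pools differed among the genes by more than their depth accounts for. Pooled over the 4 groups, the coefficient of variation within a group was 22.7% for Calb1, where counting alone gives 2.23%. The median of the 2095 genes within 0.5 log2 units of its level was 3.99%, and 99.7% of those genes varied less. Pvalb (9.91%, higher than 96.0% of genes of like level) and Vip (11.5%, higher than 94.8%) also varied more than most. Sst (6.29%, higher than 87.5%) and Cck (4.52%, higher than 73.3%) were nearer to other genes of like level. Crh, at 7.79%, varied less than counting alone gives on average (9.07%) and more than 8.17% of genes of like level.

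**Figure D3:**
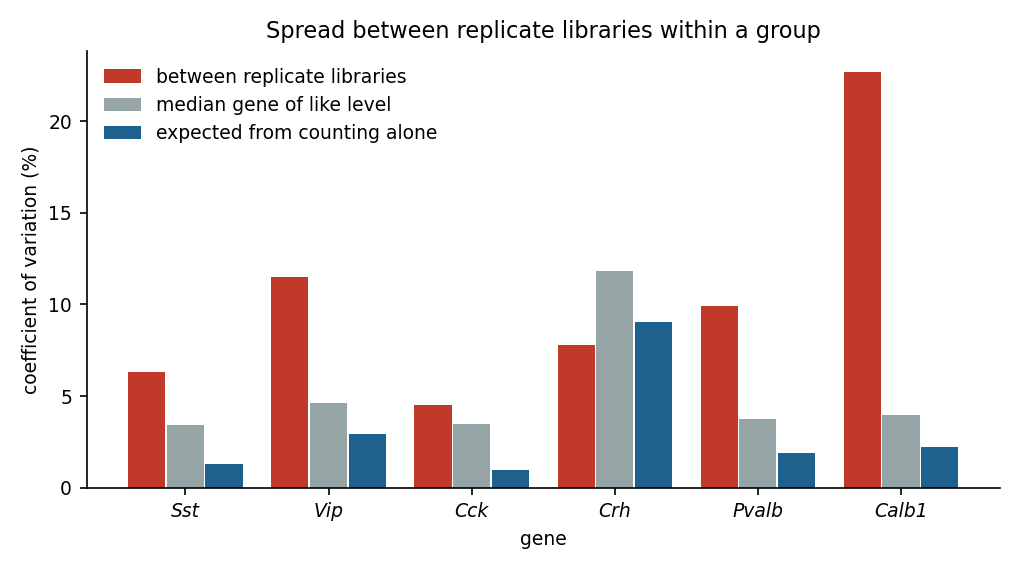
Coefficient of variation in percent (vertical axis, from 0) of each gene (horizontal axis). Red bars are the variation between replicate libraries pooled over the 4 groups, grey bars the median over genes of like level, and blue bars what counting alone gives. Calb1, at 22.7%, stands above the other genes, while Crh, at 7.79%, lies below its grey and blue bars.

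Part of this spread was shared between genes. Levels were taken as log2 CPM minus the group mean, so that group differences play no part, and the 15 pairs of the 6 genes were compared over the 16 libraries. Calb1 and Vip went together (Pearson r = 0.79, permutation p = 0.00042, adjusted over the pairs 0.0063; Spearman rho = 0.80, permutation p = 0.00061, adjusted 0.0046). In all 4 groups the library lowest in Calb1 was also the lowest in Vip, and in 3 of the 4 the highest was the same too. Calb1 and Sst went in opposite directions (r = -0.64, permutation p = 0.002, adjusted 0.015; rho = -0.75, permutation p = 0.00062, adjusted 0.0046). The library lowest in Calb1 was the highest or the second highest in Sst in each of the 4 groups. Without the 2 libraries farthest from the median of Vip the first correlation was 0.78, and without the 2 farthest in Sst the second was -0.85. 

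The calls, more than the size of r, depended on day 2 saline replicate 15, the library with the lowest Calb1 level. Without it r was 0.74 for Calb1 and Vip (permutation p adjusted over the pairs 0.05, at the threshold and counted as not past it) and -0.64 for Calb1 and Sst (adjusted 0.075). The call for Calb1 and Sst was also close to the threshold without other libraries. Its adjusted permutation p was 0.048 without day 35 saline replicate 11 and 0.045 without day 35 saline replicate 9. Sequencing lane is given in the labels, and each lane held 1 library of every group. With lane means subtracted as well as a block, r was 0.88 for Calb1 and Vip (permutation p, adjusted, 0.00075) and -0.50 for Calb1 and Sst (adjusted 0.26). These shuffles kept the groups but not the lanes, so both p may be too small. The 0.00075 is also the lowest adjusted p that 20000 permutations allow here, and cannot be compared with the main value. Crh and Calb1 had r = 0.58 (permutation p = 0.02, adjusted 0.098; rho = 0.55, permutation p = 0.038, adjusted 0.19), which did not pass. Sst and Cck had r = 0.64 but a permutation p of 0.17 (adjusted 0.42). Pvalb passed with none of the other genes, and its largest correlation was with Vip (r = 0.54, permutation p = 0.092, adjusted 0.28).

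**Figure D4:**
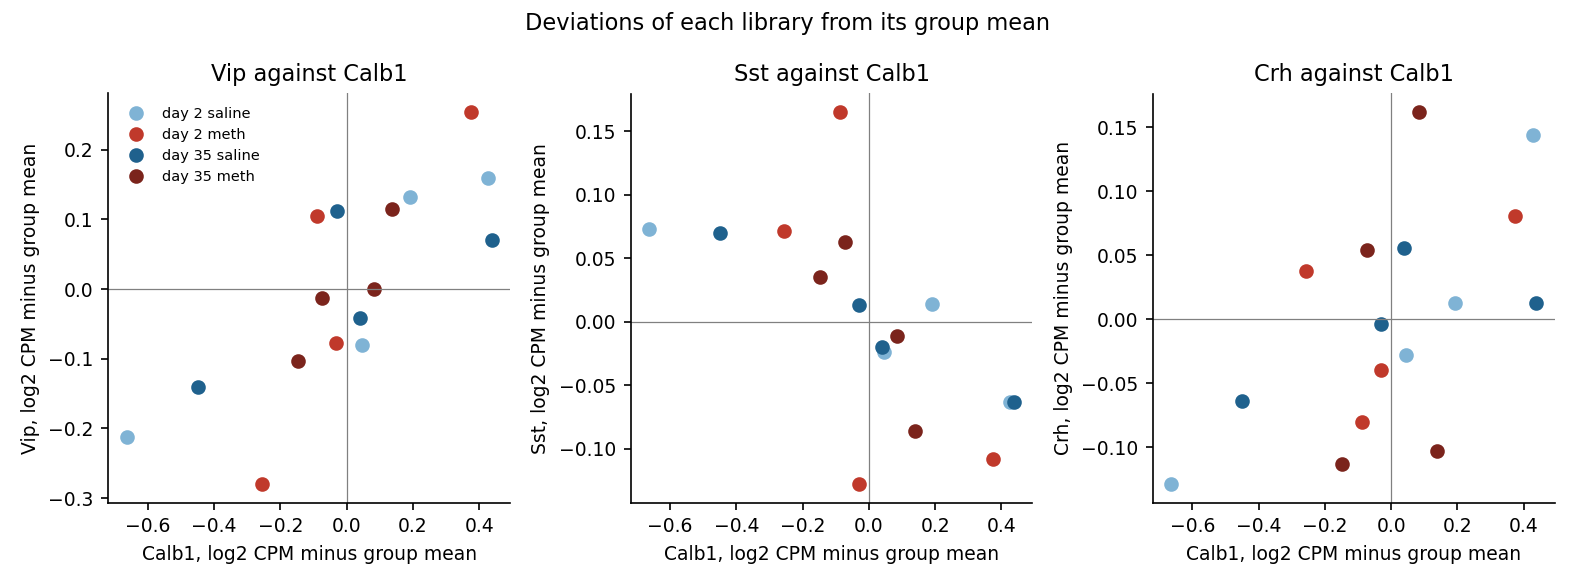
Deviation of each library from its group mean in log2 CPM for Calb1 (horizontal axis) against Vip, Sst and Crh (vertical axes). Points are the 16 libraries, coloured by group. The points rise from left to right for Vip (r = 0.79), fall for Sst (r = -0.64) and rise with more scatter for Crh (r = 0.58).

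Measures of the libraries were set against the same deviations. With log2 gene counts r was 0.36 for Calb1, 0.42 for Vip and -0.20 for Sst, and with the share of multi-mapping reads it was -0.01, -0.27 and 0.26. None of the 12 relations tested passed (lowest adjusted permutation p 0.69 for Pearson's r and 0.87 for Spearman's rho), and without the 2 most extreme libraries the 3 values for gene counts were 0.05, 0.14 and 0.08. Markers of layers, neighbouring regions or other cell types could not be read, since the files pair no gene names with their identifiers, so the part of tissue composition in this shared spread was not tested.

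Of the 6 genes, Calb1 also had the most genes of like pattern elsewhere in the table. Over the 16 libraries, with group differences left in, 97 of the 15412 other genes tested had a Pearson r of 0.8 or more with Calb1 and 59 had -0.8 or less. The numbers were 41 and 49 for Vip, 23 and 16 for Pvalb, 6 and 1 for Cck, 1 and 2 for Crh, and 1 and 1 for Sst. The most alike gene to Calb1 was ENSRNOG00000038933 (r = 0.94, mean level 26.7 CPM), and that to Vip was ENSRNOG00000021984 (r = 0.91, mean level 89.7 CPM). Vip ranked only 86 in likeness to Calb1, and Calb1 32 in likeness to Vip (r = 0.81). These counts and ranks describe libraries that share their depth and dissection and carry no p. The numbers for genes outside the 6, such as genes of like spread, were not counted.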

How the data were processed

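Per the labels' protocols, punches from 2 rats were pooled, RNA was purified, and TruSeq RNA v2 poly(A) libraries were sequenced on the Illumina platform. TopHat, HTSeq and limma, and the build rn4, are named in the submitters' processing notes. Tool versions, annotation and strand setting are not stated there. The authors deposited raw counts for each Ensembl gene, with a separate file for every library. The 5 HTSeq summary rows (31.13 to 32.61% of reads) name no gene and were dropped before scaling and testing. The 12 central amygdala samples were not analysed here.

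The 7 genes, the gene lists and the tests were chosen with earlier results of these data known. Identifiers were paired with names as given for this work. The reference table (RefSeq, GRCr8) holds 0 of the Ensembl identifiers, so the lists of receptors, processing enzymes and cell type markers, chosen by symbol, and the levels relative to GABA markers could not be run. The rule for naming genes took all 7 members and the most alike identifiers, at most 2 in all.

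Counts were filtered with filterByExpr (15413 genes kept), scaled with TMM (factors 0.985 to 1.018) and fitted with edgeR 4.0.16 (R 4.3.3), glmQLFit robust, as 4 group means over all 16 libraries, with Benjamini-Hochberg adjustment. A standard error is the log2 fold change over the root of the F statistic, and intervals are 95%. Correlations used log2(CPM + 0.5) and two-sided tests of 100000 permutations within groups, adjusted over 15 pairs, or over 12 relations with library measures. Alternatives used 20000 permutations, shuffled within groups but not within lanes. The fit was tested on simulated counts.

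The 24 pairs of replicates differed by more than sampling noise (chi-square 5.19 to 17.01 times its degrees of freedom). The main fit had no term for lane. Libraries of different groups on the same lane were treated as pairs only in the alternatives with a block for lane, which the labels give. Deviations of libraries on the same lane correlated by 0.023 on average over all genes (range -0.243 to 0.211), against -0.008 for other pairs. Each group has 1 index, so index and group cannot be told apart. The alternatives used DESeq2 1.42.0 or limma-voom 3.58.1 for the test, median-ratio scaling, other filters (none, or 1 CPM in 4 libraries), a block for lane, fits of the compared groups alone, and each library left out. Leaving out the shallowest library of each day 2 group together, leaving out libraries for the correlations, and the relations with library measures were added after seeing the data.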

Additional observations from a re-analysis of the deposited data

Results flagged for a closer look

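In day 2 meth, Pvalb stood at 75.8 CPM in replicate 1, far from the other 3 libraries (95.7 to 96.2 CPM). It was the only one of 24 sets of 4 values (6 genes in 4 groups) in which a library stood apart by Dixon's test, whose critical value is 0.829, and chance gives about 1 in 20. The same library was the shallowest of its group and the lowest of the 4 in Vip and Calb1. It was the highest of the 4 in Cck (356 CPM), and neither the highest nor the lowest in Sst and Crh.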

How the results depend on the processing

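No alternative called any of the 6 genes: all 165 counts of called genes under the 24 alternative settings were 0, and none of the 852 log2 fold changes recomputed passed. The fit with lane as a replicate block, which pairs the libraries, called 0 as well. For 3 of the 852, all of Crh with DESeq2, no adjusted p was given, so they could not pass. For Cck over time in saline rats the log2 fold change ran from -0.14 to -0.11, with a lowest adjusted p of 0.25. For Calb1 between meth and saline it ran from -0.07 to 0.34 on day 2 and from -0.38 to -0.08 on day 35.

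The correlations depended on more. With lane as a replicate block 1 pair passed in place of 2, and Sst with Calb1 had r = -0.50 (permutation p adjusted over the pairs 0.26). The shuffles of this setting did not keep the lanes, so its p may be too small. With 1 library left out, 0 to 3 pairs passed: the count was 0 without day 2 saline replicate 15 and 3 without day 2 meth replicate 1 or day 35 meth replicate 8, where Crh with Calb1 passed (r = 0.64 and 0.68). Over the 16 such settings r ran from 0.74 to 0.83 for Vip with Calb1 and from -0.75 to -0.58 for Sst with Calb1; the cause of these shifts was not tested. Depth limits Crh most, at 83 to 193 reads per library.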
